A study of Homo sapiens with 12 samples.

Results

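Luminal keratins and epithelial adhesion genes were followed in VCaP prostate cancer cells: KRT8, KRT18 and KRT19, which encode the keratins of simple and luminal epithelium, EPCAM and CDH1, which encode adhesion molecules of the epithelial cell surface, and DST, which encodes a cytoskeletal linker. All probes that the platform annotation gives to these 6 genes were taken, 14 of the 47323 probes on the Illumina bead array. Of these, 9 were kept because they were detected (detection p under 0.01) on at least 3 of the 12 arrays, and each of the 6 genes had at least 1 kept probe. They are 6 of the 10710 genes kept in all.

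VCaP is a cell line from a bone metastasis of prostate cancer and carries an active androgen receptor. The study asked how the androgen response depends on PIAS1, an E3 ligase for the small protein modifier SUMO that binds the androgen receptor. Every group was kept in 2.5% charcoal-stripped serum, which holds little steroid, for 100 h and carried an siRNA pool for 96 h. The groups were siPIAS1 with 100 nM testosterone for 16 h, siPIAS1 without testosterone, siSCR (the control siRNA pool) with 100 nM testosterone for 16 h, and siSCR without testosterone, with 3 arrays each. The cells are 1 line, and 1 siRNA pool stands for the lowering of PIAS1. Whether the 3 arrays of a group came from separate cultures is not given in the labels, so the p-values here reflect the spread between arrays, which may be technical.

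Keratins are intermediate filament proteins that work in pairs of a type II and a type I chain: KRT8 is a type II chain, and KRT18 and KRT19 are its type I partners in the luminal cells of the prostate. E-cadherin, the product of CDH1, joins neighbouring cells at adherens junctions through catenins, and EPCAM is a membrane protein that binds the tight junction protein claudin-7 and can be cleaved into signalling parts. Dystonin, the product of DST, is a plakin that exists in several forms, and its epithelial form ties keratin filaments to hemidesmosomes, the contacts of basal cells with the basement membrane.

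PIAS1, the targeted gene, was lower after siPIAS1 than after siSCR with the same treatment. Its normalized log2 signal was 10.52, 10.59 and 10.83 on the arrays of siPIAS1 with testosterone, against 11.32, 11.43 and 11.47 for siSCR with testosterone. Without testosterone it was 9.12, 8.97 and 9.23 after siPIAS1, against 10.25, 10.37 and 10.33 after siSCR. The groups did not overlap in either setting, with log2 differences of -0.76 ± 0.11 with testosterone (limma, standard error, adjusted p = 0.00015) and -1.21 ± 0.11 without (adjusted p = 9.00e-06). Testosterone itself raised PIAS1, by 1.54 ± 0.11 after siPIAS1 (limma, adjusted p = 3.97e-08) and 1.09 ± 0.11 after siSCR (adjusted p = 1.48e-06). Its mean in siPIAS1 with testosterone (10.65) was therefore above that in siSCR without testosterone (10.32), a step that was not tested. The share of probes detected on an array ran from 32.5% to 36.0%. Replicate 3 of siPIAS1 with testosterone stood apart: it had the lowest mean correlation with its own group (0.988) of the 12 arrays and a limma array weight of 0.118. Where a call of the 6 genes was gained or lost without it, or a difference that passed moved by over 1.5 times, both values are given.

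Cell type markers were read beside the 6 genes. All 8 annotated genes of a list of 10 luminal prostate markers, 3 of them the keratins described here, were detected. Their summed linear signal lay between 56600 and 58800 in siPIAS1 with testosterone, 42600 and 47400 in siPIAS1, 58200 and 62600 in siSCR with testosterone, and 38800 and 41800 in siSCR. FOLH1 of that list, the gene of prostate-specific membrane antigen, ran against the keratins, with testosterone differences of -2.96 ± 0.13 after siPIAS1 (limma, adjusted p = 1.94e-10) and -3.68 ± 0.13 after siSCR (adjusted p = 2.71e-11). Of 6 annotated basal markers, KRT5, KRT14, KRT15, NGFR and ITGB4 were detected on no array, and DST was the only one kept. The summed signal of the basal list lay between 217 and 249 in siPIAS1 with testosterone, 292 and 306 in siPIAS1, 230 and 240 in siSCR with testosterone, and 235 and 277 in siSCR. Of 8 fibroblast and smooth muscle markers 2 were kept, and the summed signal of that list was lower with testosterone (762 to 881 after siPIAS1 and 726 to 741 after siSCR) than without it (1140 to 1170 after siPIAS1 and 959 to 1060 after siSCR), with COL1A2, COL3A1, DCN, MYH11 and DES detected on no array. Of the 2 kept fibroblast and smooth muscle genes, LUM alone was called with testosterone. It was lower, with differences of -3.75 ± 0.11 after siPIAS1 (limma, adjusted p = 5.50e-12) and -3.18 ± 0.11 after siSCR (adjusted p = 4.15e-11). Of 6 blood and endothelial markers LYZ and CD14 were kept, with PTPRC, CD3E and PECAM1 detected on no array. The summed signal of that list was 754 to 776 in siPIAS1 with testosterone, 265 to 307 in siPIAS1, 286 to 311 in siSCR with testosterone and 296 to 331 in siSCR. Only 1 of its 2 kept genes was called higher with testosterone after siPIAS1, against 25.4% of all genes. The 5 annotated neuroendocrine markers summed to 2230 to 3200 in siPIAS1 with testosterone, 4960 to 5530 in siPIAS1, 2940 to 3430 in siSCR with testosterone and 3680 to 4180 in siSCR. The part of these markers in the results was not tested.

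KRT8 stood at 4 separate levels in the 4 groups, and both testosterone and siPIAS1 raised it. The normalized log2 signal of its probe (ILMN_1753584) was 12.68, 12.85 and 13.17 in siPIAS1 with testosterone, 11.47, 11.48 and 11.57 in siPIAS1, 12.06, 11.74 and 11.82 in siSCR with testosterone, and 10.67, 10.72 and 10.91 in siSCR. No array of one group overlapped with an array of another, and the order from low to high was siSCR, siPIAS1, siSCR with testosterone, siPIAS1 with testosterone. In single comparisons, groups did not overlap for 59.5% of all genes with testosterone after siPIAS1, 59.2% with testosterone after siSCR, 41.7% for siPIAS1 with testosterone and 42.6% for siPIAS1 without it. The step from siPIAS1 without testosterone to siSCR with testosterone was not tested.

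With testosterone KRT8 was 1.39 ± 0.13 higher on the log2 scale after siPIAS1 (limma, adjusted p = 8.30e-07), a 2.63-fold change, and 1.11 ± 0.13 higher after siSCR (adjusted p = 9.13e-06), a 2.16-fold change. After siPIAS1 it was 1.03 ± 0.13 higher than after siSCR when testosterone was present (adjusted p = 6.68e-05) and 0.74 ± 0.13 higher when it was not (adjusted p = 0.00225). Only 1.93% of the 10710 genes had a higher siPIAS1 difference without testosterone than KRT8, and 2.36% had a higher testosterone difference after siPIAS1. The difference between the testosterone responses of KRT8 did not pass the threshold: the response after siPIAS1 minus that after siSCR was 0.29 ± 0.19 (adjusted p = 0.341), with a 95% interval of -0.11 to 0.68, and 0.15 ± 0.15 without replicate 3 of siPIAS1 with testosterone (adjusted p = 0.547). In cultures measured in bulk, more cells of a type and more RNA per cell cannot be told apart.

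The KRT8 gene lies on chromosome 12. A start window that the RefSeq table gives for it (GRCh38.p14, minus strand, chr12:52926420-52926719, 250 bases before the start and 50 after it) is shown because KRT8 had the widest range over the arrays among the 6 genes. It was searched on both strands for AGAACA (an androgen receptor half-site), CACCTG (the E-box bound by SNAI and ZEB repressors), GGGCGG (a GC box) and TGAGTCA (an AP-1 site), and matches would be in capitals.
KRT8: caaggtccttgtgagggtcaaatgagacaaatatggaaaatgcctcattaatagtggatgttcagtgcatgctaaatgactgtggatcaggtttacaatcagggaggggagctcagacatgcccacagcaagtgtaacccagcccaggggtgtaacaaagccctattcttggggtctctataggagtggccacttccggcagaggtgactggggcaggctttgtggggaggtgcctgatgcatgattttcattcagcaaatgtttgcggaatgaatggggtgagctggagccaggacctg
None of the 4 motifs was found in these letters. Among 35116 such windows of the RefSeq table, 14.8% hold AGAACA, 20.6% hold CACCTG, 45% hold GGGCGG and 4.95% hold TGAGTCA. The KRT8 window has a GC content of 50.7% and 2 CpG dinucleotides, against a median GC content of 58.7% over all windows. A match or its lack describes these letters only. The array does not tell whether the measured KRT8 transcript came from this start.

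KRT19 followed the same order of groups as KRT8. Its probe (ILMN_1730777) read 11.13, 11.16 and 11.78 in siPIAS1 with testosterone, 10.17, 10.41 and 10.51 in siPIAS1, 10.90, 10.59 and 10.73 in siSCR with testosterone, and 9.55, 9.51 and 9.65 in siSCR. Again no 2 groups overlapped, though the highest siPIAS1 array and the lowest array of siSCR with testosterone were close, and that step was not tested.

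The testosterone difference of KRT19 was 0.99 ± 0.16 after siPIAS1 (limma, adjusted p = 0.000128) and 1.17 ± 0.16 after siSCR (adjusted p = 3.28e-05). The siPIAS1 difference was 0.61 ± 0.16 with testosterone (adjusted p = 0.00982) and 0.79 ± 0.16 without it (adjusted p = 0.00513). KRT19, the shortest keratin, lacks a tail domain and pairs with KRT8. Replicate 3 of siPIAS1 with testosterone held the highest KRT19 value, and without that array the siPIAS1 difference with testosterone was 0.40 ± 0.12 (adjusted p = 0.0178). The testosterone responses differed by -0.18 ± 0.22 (adjusted p = 0.640), with a 95% interval of -0.66 to 0.30, and by -0.39 ± 0.16 without that array (adjusted p = 0.113).

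KRT18, a partner of KRT8, passed the threshold in 2 comparisons on its brighter probe. Its brighter probe (ILMN_1803408) read 8.99, 8.86 and 9.23 in siPIAS1 with testosterone, 8.07, 8.28 and 8.13 in siPIAS1, 8.69, 8.29 and 8.55 in siSCR with testosterone, and 8.17, 8.08 and 8.43 in siSCR. The 3 arrays of siPIAS1 with testosterone lay above all others, while the ranges of siSCR with testosterone and siSCR overlapped, as did those of siPIAS1 and siSCR. Its second probe (ILMN_1730848) averaged 7.96 ± 0.22 in siPIAS1 with testosterone, 7.12 ± 0.14 in siPIAS1, 7.62 ± 0.04 in siSCR with testosterone and 7.25 ± 0.08 in siSCR (SD, n = 3 each). On this probe the arrays of siSCR with testosterone lay above those of siSCR, and siPIAS1 and siSCR again overlapped.

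Testosterone raised KRT18 after siPIAS1 by 0.87 ± 0.13 (limma, adjusted p = 9.75e-05) on the brighter probe and by 0.84 ± 0.12 (adjusted p = 5.46e-05 over all 17835 kept probes) on the second, where 51.3% of probes were called. After siSCR the brighter probe differed by 0.28 ± 0.13 (adjusted p = 0.108), with a 95% interval of -0.0085 to 0.57, and the second probe was 0.37 ± 0.12 higher (adjusted p = 0.0237, with 39.9% of probes called). The probes fell on different sides of the threshold. The second probe's call was lost without siSCR replicate 1 or 2, or siSCR with testosterone replicate 2 or 3 (highest adjusted p = 0.0797), and the brighter probe passed without siSCR with testosterone replicate 2 (0.39 ± 0.14, adjusted p = 0.0433). Between the siRNAs, KRT18 was 0.52 ± 0.13 higher after siPIAS1 with testosterone (adjusted p = 0.00968), and without testosterone the difference was -0.07 ± 0.13 (adjusted p = 0.805), with a 95% interval of -0.36 to 0.22. The call with testosterone was lost without siSCR with testosterone replicate 2 (0.41 ± 0.14, adjusted p = 0.0536), and on the second probe it was close to the threshold (0.34 ± 0.12, adjusted p = 0.0485, with 28.9% of probes called, against 9.58% without testosterone) and lost in 9 of 12 fits without 1 array. Without replicate 3 of siPIAS1 with testosterone the second probe gave 0.21 ± 0.10 (adjusted p = 0.130).

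The testosterone response of KRT18 after siPIAS1 minus that after siSCR was 0.59 ± 0.19 (limma, unadjusted p = 0.00815, adjusted p = 0.0663), and 0.47 ± 0.17 on the second probe (adjusted p = 0.106, with 7.76% of probes called). On the brighter probe it passed without siSCR with testosterone replicate 1 (adjusted p = 0.0394) or without siPIAS1 with testosterone replicate 2 (adjusted p = 0.0389). KRT8 and KRT18 are neighbours with overlapping spans on chromosome 12, and KRT19 lies on chromosome 17. The RefSeq table holds 52 genes named as KRT8 pseudogenes, 68 for KRT18 and 5 for KRT19. No probe on the array is annotated to one of these pseudogenes, and how far their transcripts could bind the keratin probes was not tested.

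**Figure D1:**
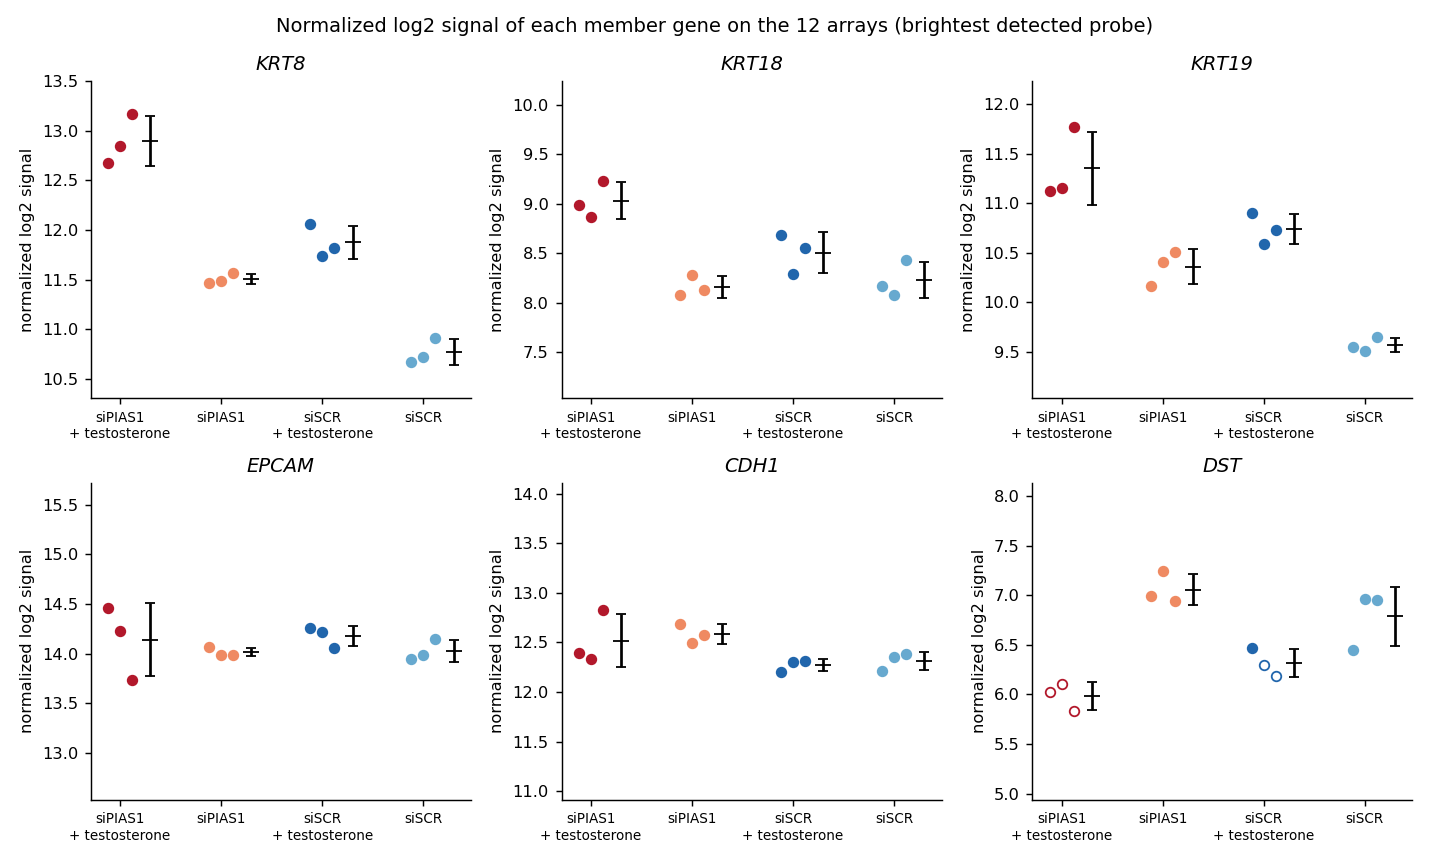
Normalized log2 signal (vertical axis, a span of 3.2 log2 units in each panel) of the 6 genes on the 12 arrays, by group. Each point is 1 array, open where the probe was not detected, and the bar beside the points is the mean ± SD of 3 arrays. KRT8 and KRT19 form 4 separate steps, EPCAM and CDH1 stay within 0.73 and 0.63 log2 units over all arrays, and DST is lowest in siPIAS1 with testosterone.

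EPCAM did not pass the threshold in any comparison, on any of its 3 kept probes, in the model with equal array weights and quantile normalization. The brightest probe (ILMN_2160210) read 14.46, 14.22 and 13.74 in siPIAS1 with testosterone, 14.06, 13.99 and 13.99 in siPIAS1, 14.25, 14.22 and 14.06 in siSCR with testosterone, and 13.94, 13.99 and 14.15 in siSCR. All 4 groups overlapped, and replicate 3 of siPIAS1 with testosterone was the lowest of the 12 arrays. The other probes ranged from 13.51 to 13.96 (ILMN_3249032) and from 10.38 to 10.87 (ILMN_2160209) over the 12 arrays.

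The testosterone difference of EPCAM was 0.13 ± 0.15 after siPIAS1 (limma, adjusted p = 0.489, 95% interval -0.19 to 0.45) and 0.15 ± 0.15 after siSCR (adjusted p = 0.440, 95% interval -0.17 to 0.47). The siPIAS1 difference was -0.04 ± 0.15 with testosterone (adjusted p = 0.873) and -0.01 ± 0.15 without it (adjusted p = 0.973). Without replicate 3 of siPIAS1 with testosterone, the testosterone difference after siPIAS1 was 0.33 ± 0.10 and passed (adjusted p = 0.0155). Over the other probes the same difference was 0.23 ± 0.11 (adjusted p = 0.106 over probes) and 0.19 ± 0.11 (adjusted p = 0.159). Without the same array ILMN_3249032 passed as well (0.30 ± 0.11, adjusted p = 0.0358). With all 12 arrays, array weights called this difference on ILMN_2160210 (0.30 ± 0.11, adjusted p = 0.0237) and ILMN_3249032 (0.29 ± 0.10, adjusted p = 0.0223), and scaling to the 75th percentile called it on ILMN_2160209 (0.33 ± 0.12, adjusted p = 0.0372).

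CDH1 did not pass either. Its probe (ILMN_1770940) read 12.40, 12.34 and 12.83 in siPIAS1 with testosterone, 12.69, 12.50 and 12.57 in siPIAS1, 12.20, 12.30 and 12.31 in siSCR with testosterone, and 12.21, 12.35 and 12.39 in siSCR. The arrays of each siPIAS1 group lay above those of the siSCR group with the same treatment. Of all genes, 41.7% did not overlap in this comparison with testosterone and 42.6% without it. The CDH1 differences were 0.25 ± 0.12 with testosterone (limma, adjusted p = 0.137, 95% interval -0.018 to 0.51) and 0.27 ± 0.12 without it (adjusted p = 0.177, 95% interval 0.0045 to 0.54). Without replicate 3 of siPIAS1 with testosterone, which enters the shared spread, the difference without testosterone passed at the same size (adjusted p = 0.0328), while the difference with testosterone was 0.10 ± 0.09 (adjusted p = 0.453). The testosterone difference was -0.07 ± 0.12 after siPIAS1 (adjusted p = 0.674, 95% interval -0.33 to 0.20), -0.22 ± 0.09 without that array (adjusted p = 0.0619), and -0.04 ± 0.12 after siSCR (adjusted p = 0.807, 95% interval -0.31 to 0.22). Over the 12 arrays 78.7% of all genes had a wider range than CDH1 and 68.3% a wider range than EPCAM, while 3.32% had a wider range than KRT8, 4.47% than KRT19, 20.2% than DST and 32.6% than KRT18.

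DST ran against the keratins: testosterone lowered it in both siRNA settings. The single kept probe (ILMN_2287157) read 6.02, 6.11 and 5.83 in siPIAS1 with testosterone, 6.99, 7.24 and 6.95 in siPIAS1, 6.47, 6.30 and 6.19 in siSCR with testosterone, and 6.45, 6.96 and 6.95 in siSCR. It was detected on 0 of 3 arrays of siPIAS1 with testosterone, 3 of 3 of siPIAS1, 1 of 3 of siSCR with testosterone and 3 of 3 of siSCR, so it was kept mainly through the groups without testosterone. These signals are close to the floor: the lowest detected signal of an array lay between 6.07 and 6.43.

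After siPIAS1 the testosterone difference of DST was -1.07 ± 0.15 (limma, adjusted p = 2.88e-05). Because the probe was not detected in siPIAS1 with testosterone, its level there is a bound. With the background correction used here DST was at least 1.76-fold lower, and this bound holds for that processing only. The fitted log2 difference varied with the processing: it was -0.57 without background correction and -0.29 when the same model was fitted to the authors' normalized values, and passed in both. After siSCR the difference was -0.47 ± 0.15 (adjusted p = 0.0172), and both groups overlapped, since siSCR replicate 1 lay below siSCR with testosterone replicate 1. That call was lost without siSCR replicate 2 (adjusted p = 0.0817), siSCR replicate 3 (adjusted p = 0.0782) or siSCR with testosterone replicate 3 (adjusted p = 0.0731). It was also lost when the model was fitted to the authors' normalized values (-0.13 ± 0.06, adjusted p = 0.0930).

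With testosterone DST was detected on 0 of 3 arrays after siPIAS1 and 1 of 3 after siSCR. The fitted siPIAS1 difference there, -0.33 ± 0.15 (limma, adjusted p = 0.0948), compares signals at the floor, so no bound on a fold is given. The siPIAS1 difference was 0.27 ± 0.15 without testosterone (adjusted p = 0.249, 95% interval -0.04 to 0.58). The testosterone response after siPIAS1 minus that after siSCR was -0.60 ± 0.21 (unadjusted p = 0.0111, adjusted p = 0.0798), a value that rests on the same undetected signals. The other 5 DST probes were detected on none of the 12 arrays, with scanner signals between 61.1 and 128 and a lowest detection p of 0.0273. The 6 probes were designed on 2 RefSeq transcripts, 3 on each, and the kept probe shares its transcript with 2 of the undetected ones. All 3 probes designed on the other transcript were undetected. The DST result therefore rests on 1 probe. Which DST form that probe measures was not tested, and it may not be the epithelial form described above.

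**Figure D2:**
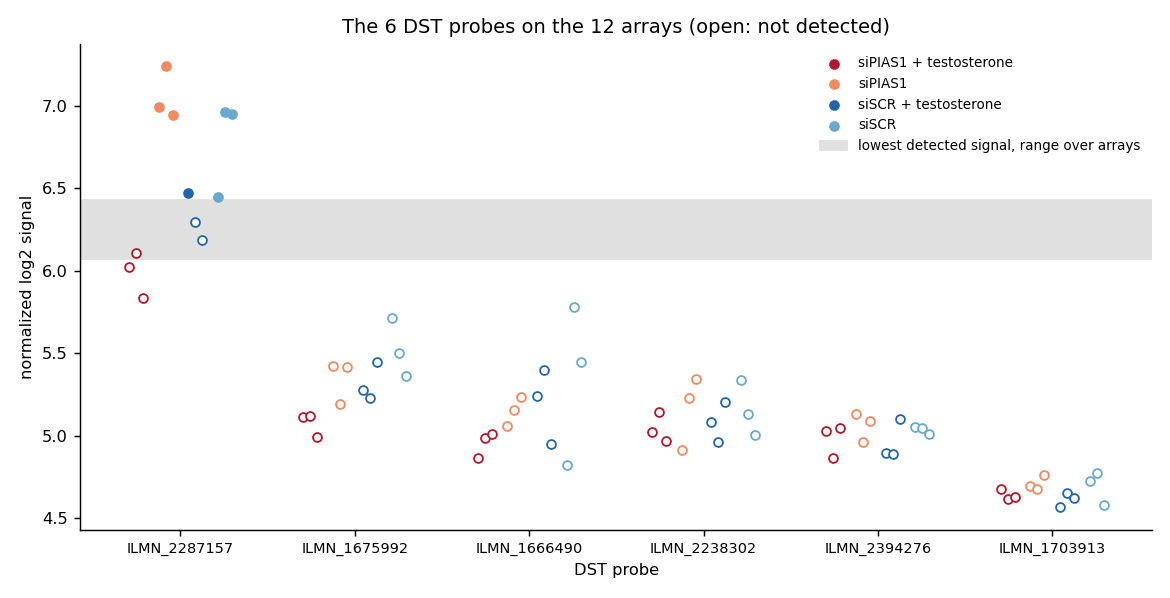
Normalized log2 signal (vertical axis) of the 6 DST probes (horizontal axis) on the 12 arrays, coloured by group, with open points where the probe was not detected. The grey band is the range over arrays of the lowest detected signal, 6.07 to 6.43. Only ILMN_2287157 rises above the band, on the arrays without testosterone and on 1 array of siSCR with testosterone.

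DST lies on chromosome 6, and the RefSeq table gives 3 start windows for it (GRCh38.p14, minus strand). They are shown because the gene has several forms and they differ in base composition: GC content was 80%, 46.3% and 39.3%, with 45, 6 and 3 CpG dinucleotides. Capitals mark GC boxes (GGGCGG, either strand) and the AP-1 site (TGAGTCA).
DST, chr6:56954781-56955080: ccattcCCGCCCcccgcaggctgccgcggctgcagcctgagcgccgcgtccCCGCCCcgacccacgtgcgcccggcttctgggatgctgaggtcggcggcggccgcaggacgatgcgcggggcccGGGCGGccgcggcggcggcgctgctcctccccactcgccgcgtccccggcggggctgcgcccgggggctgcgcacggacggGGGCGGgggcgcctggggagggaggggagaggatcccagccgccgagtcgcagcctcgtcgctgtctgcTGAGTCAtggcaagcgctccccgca
DST, chr6:56851856-56852155: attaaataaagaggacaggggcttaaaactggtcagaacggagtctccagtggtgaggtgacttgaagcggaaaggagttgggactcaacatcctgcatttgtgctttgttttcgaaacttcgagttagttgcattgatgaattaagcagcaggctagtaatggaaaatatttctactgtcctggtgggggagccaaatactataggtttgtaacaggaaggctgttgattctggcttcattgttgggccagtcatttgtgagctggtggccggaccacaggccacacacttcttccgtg
DST, chr6:56642840-56643139: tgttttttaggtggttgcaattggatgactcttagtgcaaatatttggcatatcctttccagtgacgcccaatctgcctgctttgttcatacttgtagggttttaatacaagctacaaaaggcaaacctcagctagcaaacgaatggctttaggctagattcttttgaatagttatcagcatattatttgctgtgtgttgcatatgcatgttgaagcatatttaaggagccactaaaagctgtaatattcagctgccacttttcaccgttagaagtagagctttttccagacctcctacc
The first window holds 4 GC boxes and 1 AP-1 match, which starts at base 276 of the window. The other 2 windows hold none of the 4 motifs, and AGAACA and CACCTG are in none of the 3. The array does not tell which start the measured transcript came from. The table matched 2 of the 6 genes, and windows for KRT18, KRT19, EPCAM and CDH1 were not used here.

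Counted over the 6 genes, testosterone after siPIAS1 changed 4 (KRT8, KRT18 and KRT19 higher, DST lower), where 55.1% of the 10710 genes were called, 25.4% higher and 29.7% lower. Testosterone after siSCR changed 3 (KRT8 and KRT19 higher, DST lower), against 44.3% of all genes, 20% higher and 24.3% lower. The siPIAS1 comparison called KRT8, KRT18 and KRT19 with testosterone, all higher, against 33.5% of all genes called, 16.3% higher and 17.2% lower. Without testosterone it called KRT8 and KRT19, both higher, against 13.3% called, 7.56% higher and 5.77% lower. With 6 genes, of which DST was kept mainly where it was high, these shares are a description. No gene of the 6 passed in the difference between testosterone responses, where 9.94% of all genes did (4.88% higher and 5.06% lower), and KRT18 and DST, the second with its undetected group, had an unadjusted p under 0.05 in limma, the tool used.

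**Figure D3:**
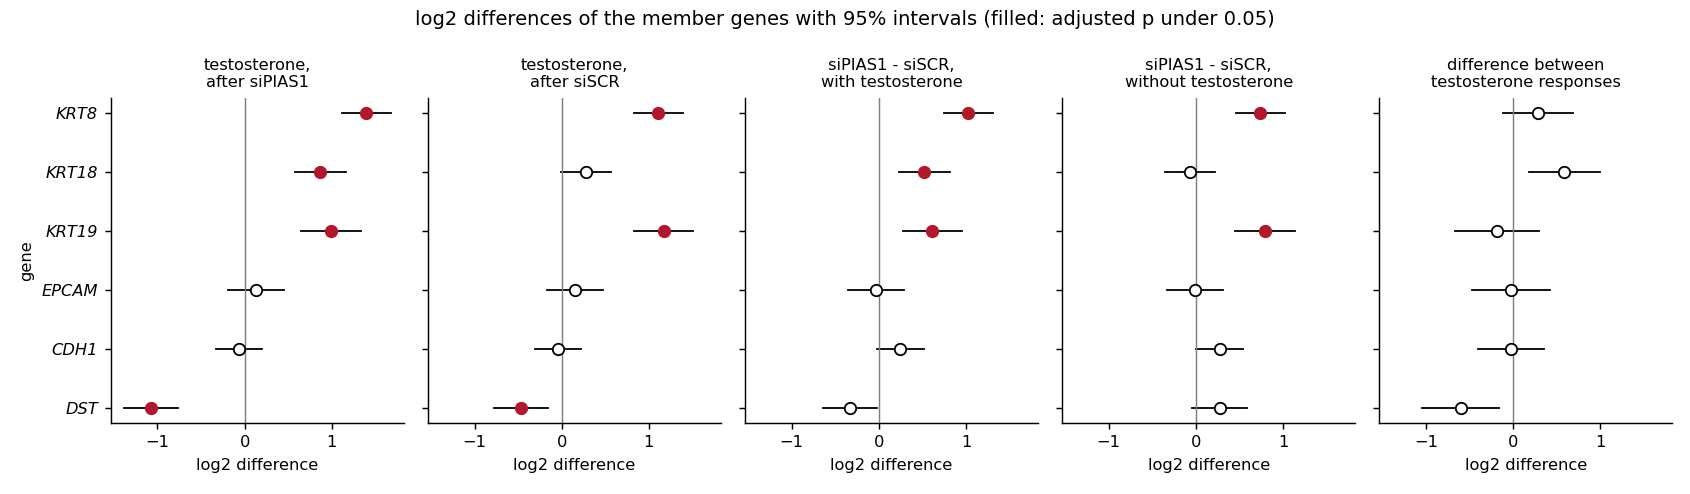
log2 differences of the 6 genes (horizontal axis) in the 5 comparisons, with testosterone or siPIAS1 first in each difference. Points are estimates from the limma fit, lines their 95% intervals, and filled points have an adjusted p under 0.05. KRT8 and KRT19 are filled in the first 4 panels, EPCAM and CDH1 in none, and KRT18 and DST lie on opposite sides of 0 in the last panel without passing.

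Across the 12 arrays, KRT8 and KRT19 had a Pearson r of 0.98, KRT8 and KRT18 had r = 0.88, and KRT18 and KRT19 had r = 0.84. DST ran the other way, with r = -0.74 to KRT8, -0.80 to KRT18 and -0.71 to KRT19. CDH1 had r between -0.52 and 0.36 with the other 5 genes. These are descriptions over 12 arrays that fall into the same 4 groups, which sets much of a correlation where both genes differ between groups. EPCAM and CDH1 passed in no comparison, so their correlations rest more on single arrays.

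By the same measure, the genes most like KRT8 over the 12 arrays were CDKN1A (r = 0.99), the gene of the cell cycle inhibitor p21, ZNF467 (0.99) and CUX2 (0.99). KRT19 was most like SLC45A3 (r = 0.99), which encodes prostein, a prostate protein known to follow androgen, then MICAL1 (0.98) and CDKN1A (0.98). KRT18 was most like TXNL4B (r = 0.97), PPP1R16A (0.97) and IFT22 (0.97). EPCAM was most like MSTO1 (r = 0.96), NSMF (0.93) and FAM120A (0.91), and CDH1 most like VIPAS39 (r = 0.95), CALCOCO1 (0.92) and DDAH2 (0.92). The EPCAM values hold for its brightest probe only, which had r = 0.76 with the EPCAM probe ILMN_3249032 and 0.48 with ILMN_2160209. DST was most like KLHL42 (r = 0.96), DPRXP4 (0.95) and ZNF462 (0.95).

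Among other keratins, few were seen. Of 7 simple and secretory keratins all were annotated and only the 3 described here were kept, so KRT7, KRT20, KRT23 and KRT80 did not pass the filter. Of 11 keratins of basal and stratified epithelium, 8 were annotated and KRT10 alone was kept. KRT10, known from the upper layers of the epidermis, read 11.41, 11.16 and 11.71 in siPIAS1 with testosterone, against 10.59, 10.50 and 10.52 in siPIAS1. It read 10.91, 10.72 and 10.74 in siSCR with testosterone, against 10.63, 10.65 and 10.39 in siSCR. Like KRT18, KRT10 was highest in siPIAS1 with testosterone: the testosterone difference was 0.89 ± 0.13 after siPIAS1 (limma, adjusted p = 6.17e-05) and 0.23 after siSCR, where it did not pass.

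The genes of the E-cadherin junction held calls in both directions, as did the genes at large. Of 21 adherens junction genes 18 were kept. Testosterone after siPIAS1 raised 7 and lowered 5, against 25.4% of all genes raised and 29.7% lowered, with a median difference of 0.08 against -0.03 over all genes, and after siSCR it raised 6 and lowered 4, against 20% and 24.3% of all genes, with a median of 0.13 against -0.02. CTNNB1, which encodes the beta-catenin bound to the tail of E-cadherin, was 0.43 ± 0.09 higher after siPIAS1 (limma, adjusted p = 0.00146) and 0.37 ± 0.09 higher after siSCR (adjusted p = 0.00542). CDH3, the gene of P-cadherin, a cadherin of basal prostate cells, read 5.53, 5.34 and 5.11 in siPIAS1 with testosterone, against 7.85, 7.33 and 7.80 in siPIAS1, and 5.37, 5.50 and 5.41 in siSCR with testosterone, against 7.83, 7.59 and 7.59 in siSCR. CDH3 was undetected with testosterone and kept only through the groups without it, where it was high. It was at least 2.67-fold lower with testosterone after siPIAS1 and at least 2.60-fold lower after siSCR. The fitted differences compare with undetected signals: -2.33 ± 0.14 after siPIAS1 (limma, adjusted p = 1.09e-08) and -2.24 ± 0.14 after siSCR (adjusted p = 1.72e-08).

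CBLL1, which encodes HAKAI, an E3 ubiquitin ligase that targets E-cadherin for degradation, had the largest rise of this list. It read 12.06, 11.99 and 11.99 in siPIAS1 with testosterone, against 9.20, 9.19 and 9.26 in siPIAS1, and 10.65, 10.76 and 10.65 in siSCR with testosterone, against 9.43, 9.25 and 9.40 in siSCR. The testosterone difference was 2.80 ± 0.09 after siPIAS1 (limma, adjusted p = 9.53e-12) and 1.33 ± 0.09 after siSCR (adjusted p = 2.81e-08). CBLL1 was the only adherens junction gene whose testosterone responses differed past the threshold, by 1.47 ± 0.13 (adjusted p = 7.94e-06). PKP4, an armadillo protein of these junctions, was lower after siPIAS1 in both settings, with differences of -0.59 ± 0.10 with testosterone (adjusted p = 0.000484) and -0.64 ± 0.10 without it (adjusted p = 0.000738).

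The tight junction list, which includes claudins, leaned to higher values with testosterone. Of 19 genes 15 were kept. Testosterone after siPIAS1 raised 10 and lowered 3, with a median difference of 0.68, against 25.4% of all genes called higher and 29.7% lower. After siSCR it raised 12 and lowered 1, with a median of 0.65, against 20% called higher and 24.3% lower. A further gene was called lower after siSCR in 11 of 23 alternatives, among them the fits without siSCR with testosterone replicate 3, or without replicate 1 or 3 of siPIAS1 with testosterone. CLDN7, the claudin that EPCAM binds, read 10.18, 10.35 and 10.80 in siPIAS1 with testosterone, against 9.61, 9.52 and 9.60 in siPIAS1, and 10.46, 10.49 and 10.59 in siSCR with testosterone, against 10.01, 9.56 and 9.57 in siSCR. It was 0.87 ± 0.15 higher after siPIAS1 (limma, adjusted p = 0.000277) and 0.80 ± 0.15 higher after siSCR (adjusted p = 0.000626).

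CXADR, a junction adhesion protein also known as the coxsackievirus and adenovirus receptor, was 1.24 ± 0.10 higher with testosterone after siPIAS1 (limma, adjusted p = 1.97e-07) and 1.81 ± 0.10 higher after siSCR (adjusted p = 4.12e-09). JAM3, a junctional adhesion molecule, fell most in this list: it read 6.37, 5.74 and 6.13 in siPIAS1 with testosterone, against 10.20, 10.26 and 10.23 in siPIAS1, and 6.33, 6.32 and 6.51 in siSCR with testosterone, against 9.65, 9.74 and 9.75 in siSCR. Its differences were -4.15 ± 0.13 (adjusted p = 9.69e-12) and -3.33 ± 0.13 (adjusted p = 1.39e-10), with 2 of 3 arrays detected in each testosterone group. With testosterone present, siPIAS1 raised 6 genes of the list and lowered 3, against 16.3% and 17.2% of all genes, and the count of raised genes fell to 3 without replicate 1 or replicate 3 of siSCR with testosterone.

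**Figure D4:**
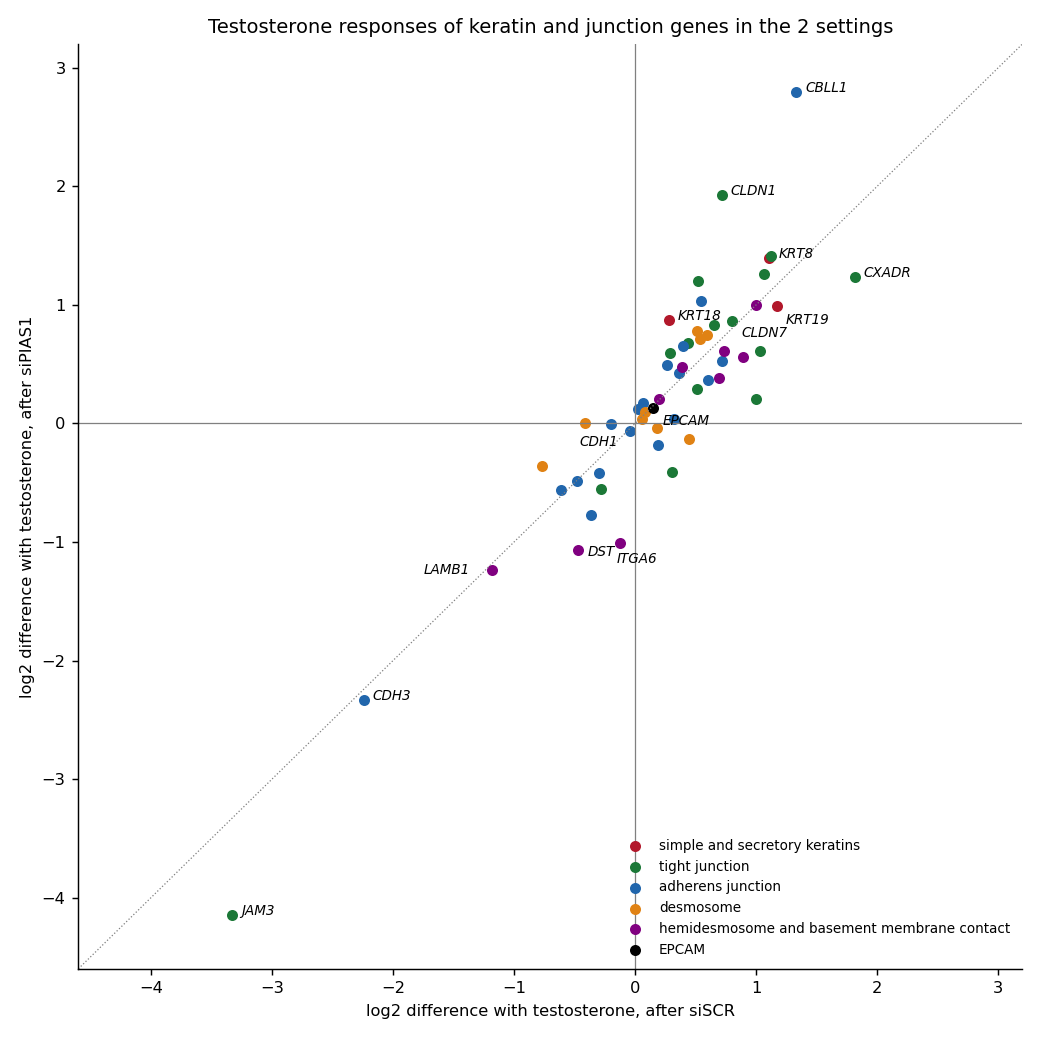
Testosterone log2 differences after siPIAS1 (vertical axis) and after siSCR (horizontal axis) for the kept genes of the keratin and junction lists and EPCAM, 1 point a gene, coloured by list. The dotted line marks equal responses. EPCAM and CDH1 lie near 0 on both axes, KRT18, CLDN1 and CBLL1 lie above the line, and JAM3 and CDH3 have the lowest values.

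Desmosomes anchor keratin filaments at cell contacts. Of 11 desmosome genes 10 were kept, and testosterone raised 3 and lowered 2 after siPIAS1, and raised 4 and lowered 3 after siSCR, where 55.1% and 44.3% of all genes were called in either direction. Both lowered genes after siPIAS1 lost their call when all detected probes of a gene were averaged. PKP1 and PKP2, the genes of plakophilins that link desmosomal cadherins to the plaque, were higher with testosterone after siPIAS1, by 0.75 ± 0.11 (limma, adjusted p = 5.54e-05) and 0.71 ± 0.13 (adjusted p = 0.000395). They were also higher after siSCR, by 0.59 ± 0.11 (adjusted p = 0.000484) and 0.53 ± 0.13 (adjusted p = 0.00408).

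Hemidesmosome and basement membrane genes, a list of DST itself and the structural partners of its epithelial form, were kept for 9 of 14. Testosterone raised 5 and lowered 3 after siPIAS1, against 55.1% of all genes called in either direction, and raised 5 and lowered 2 after siSCR, against 44.3%. Of the 3 lowered after siPIAS1, DST and ITGA6 were detected on no array of siPIAS1 with testosterone. After siSCR DST was one of the lowered genes and dropped out without siSCR replicate 2 or 3, or siSCR with testosterone replicate 3. PLEC, which encodes plectin, the other plakin that ties keratin to the hemidesmosome, moved opposite to DST: it read 8.09, 7.85 and 8.40 in siPIAS1 with testosterone, against 7.12, 7.15 and 7.07 in siPIAS1, and 8.07, 7.47 and 7.93 in siSCR with testosterone, against 6.92, 6.80 and 6.76 in siSCR. Its testosterone difference was 1.00 ± 0.16 after both siPIAS1 (limma, adjusted p = 9.88e-05) and siSCR (adjusted p = 0.000123). LAMB1, a laminin chain, was lower, with differences of -1.24 ± 0.10 after siPIAS1 (adjusted p = 1.46e-07) and -1.18 ± 0.10 after siSCR (adjusted p = 2.47e-07).

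MACF1, the spectraplakin most like DST in structure, was lower with testosterone, with differences of -0.64 ± 0.10 after siPIAS1 (limma, adjusted p = 0.000146) and -0.44 ± 0.10 after siSCR (adjusted p = 0.00335), on its brightest probe only. The mean over its detected probes gave -0.26 (adjusted p = 0.0694) and -0.09 (adjusted p = 0.537). Of 7 plakin genes 5 were kept. Testosterone raised 1 and lowered 2 after siPIAS1, and raised 3 and lowered 2 after siSCR, against 55.1% and 44.3% of all genes called, and DST and MACF1 were the lowered ones in both.

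Of 18 genes for partners and cleavage of EPCAM, 15 were kept. Testosterone raised 7 and lowered 4 after siPIAS1, against 55.1% of all genes called, and raised 3 and lowered 3 after siSCR, against 44.3%. After siSCR 5 were raised without replicate 3 of siPIAS1 with testosterone. TSPAN8, a tetraspanin found in complexes with EPCAM, read 11.12, 11.22 and 10.75 in siPIAS1 with testosterone, against 12.80, 12.69 and 12.88 in siPIAS1, and 9.75, 10.41 and 10.28 in siSCR with testosterone, against 12.44, 12.38 and 12.29 in siSCR. Testosterone lowered it, with differences of -1.76 ± 0.16 after siPIAS1 (limma, adjusted p = 6.05e-07) and -2.22 ± 0.16 after siSCR (adjusted p = 5.89e-08). CD44, a hyaluronan receptor in the same complexes, was lower too, with differences of -1.70 ± 0.17 after siPIAS1 (adjusted p = 1.87e-06) and -0.70 ± 0.17 after siSCR (adjusted p = 0.00482). CD44 was detected on 2 of 3 arrays of siPIAS1 with testosterone. In siSCR with testosterone it read 6.19, 6.50 and 6.06, where the lowest detected signals of these arrays were 6.22, 6.35 and 6.31. Both differences reach the floor, and how far it limits them was not tested. Without testosterone, CD44 was 0.99 ± 0.17 higher after siPIAS1 than after siSCR (adjusted p = 0.00208).

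Among the repressors of CDH1 and mesenchymal genes, 3 of 13 were kept. SNAI2, which encodes the E-box repressor SLUG, was undetected on all arrays without testosterone and read 7.58, 7.94 and 8.16 in siPIAS1 with testosterone and 6.92, 7.17 and 7.19 in siSCR with testosterone. SNAI2 was thus kept only through the groups with testosterone, where it was high. It was at least 3.29-fold higher with testosterone after siPIAS1 and at least 1.94-fold higher after siSCR. The fitted differences compare with undetected signals: 3.31 ± 0.13 after siPIAS1 (limma, adjusted p = 9.89e-11) and 2.46 ± 0.13 after siSCR (adjusted p = 2.84e-09). TCF3, whose products also bind E-boxes, differed by -1.16 ± 0.14 after siPIAS1 (adjusted p = 1.25e-05) and -0.49 ± 0.14 after siSCR (adjusted p = 0.0130). VIM, the gene of the mesenchymal filament vimentin, differed by 0.03 ± 0.14 (adjusted p = 0.885) and 0.09 ± 0.14 (adjusted p = 0.650), and SNAI1, ZEB1, ZEB2, TWIST1, TWIST2, CDH2 and FN1 did not pass the filter.

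Of 17 regulators of epithelial transcription and splicing, 14 were kept. Testosterone raised 6 and lowered 3 after siSCR, against 44.3% of all genes called. After siPIAS1 it raised 5 and lowered 4, against 55.1%, and the 5 fell to 3 in 6 of the 12 fits without 1 array. SPDEF, an ETS factor of prostate epithelium, rose by 1.48 ± 0.10 after siPIAS1 (limma, adjusted p = 4.00e-08) and 1.94 ± 0.10 after siSCR (adjusted p = 2.73e-09). GRHL2, a factor known to act on CDH1, read 7.85, 7.51 and 7.74 in siPIAS1 with testosterone, 8.31, 8.04 and 8.21 in siPIAS1, 8.76, 8.72 and 8.76 in siSCR with testosterone, and 7.99, 8.17 and 7.94 in siSCR. It was highest in siSCR with testosterone, and with testosterone the siPIAS1 difference was -1.05 ± 0.11 (adjusted p = 1.44e-05).

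Genes whose products bind or organise keratin filaments were kept for 12 of 16. Testosterone raised 5 and lowered 5 after siPIAS1, against 55.1% of all genes called, and the lowered count fell to 3 without siPIAS1 replicate 1 or siPIAS1 with testosterone replicate 2. After siSCR it raised 5 and lowered 4, against 44.3% of all genes called, and the raised count fell to 3 without siSCR replicate 2 and to 2 without siSCR with testosterone replicate 1. SYNM, the gene of the filament linker synemin, was lower with testosterone, with differences of -0.84 ± 0.12 after siPIAS1 (limma, adjusted p = 5.88e-05) and -0.77 ± 0.12 after siSCR (adjusted p = 0.000155).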

How the data were processed

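The 12 arrays measured VCaP RNA in 4 groups of 3, grouped by the siRNA and testosterone labels. The deposited signal table holds scanner intensity without normalization and a detection p-value for every probe, per the file headers. A table of log2 values normalized by the authors was deposited too, made with lumi per the submitters' processing notes, for which the sources used here give no version or settings. Its columns ordered the probes exactly as the scanner signals of their arrays (rank correlation 1), with slopes of 0.834 to 1.08 over 1879 bright probes, a lowest value of 7.22 and medians of 7.60 to 7.61, so direction is kept and genes are not centred, while the exact transform stays unknown. That table served as an alternative only.

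The intensity values received neqc background correction and quantile normalization (limma 3.58.1, R 4.3.3, offset 16). Probes with a detection p under 0.01 on at least 3 arrays were kept (17835 of 47323). Of all probes, 30113 had 1 gene symbol and 8 had several, and symbols were updated through RefSeq GRCh38.p14. The brightest kept probe stood for each of 10710 genes. The limma model had 4 group means over all 12 arrays (8 residual and 5.77 prior degrees of freedom), with two-sided p-values adjusted by Benjamini-Hochberg over all genes and a threshold of 0.05, and a second over the 17835 probes for single probes. Differences are log2 ± standard error, and levels are normalized log2 signal. A bound is the mean of the brighter group over, per array, the higher of the lowest detected signal and the probe's own. It holds for this background correction and normalization only. Precision is limited by the 3 arrays per group. The fit was tested on simulated data. The genes and lists were chosen with earlier results of these data known. The rule for other named genes took up to 4 of each list with the smallest p per comparison among those past the threshold, and for each of the 6 genes the 3 genes with the highest correlation over the arrays. Further list genes (CTNNB1, VIM and the genes that did not pass the filter) and MACF1's probe mean were chosen after their values were seen. The alternatives were other background, offset, scaling, filter and probe rules, the authors' values, array weights, only the groups compared, the replicate number as a block, and leaving out each array. The files name no slide, so no slide block was fitted.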

Additional observations from a re-analysis of the deposited data

Results flagged for a closer look

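None of the 6 genes had testosterone responses that differed past the threshold, where 9.94% of all genes did. Some genes of the lists around them passed. With 6 genes and that share, this is a description and no contrast between the 6 genes and the lists. The 15 given here are the up to 4 per list with the smallest p, as tested by the difference between responses in limma (after siPIAS1 minus after siSCR, log2, adjusted over all genes). CLDN8 (-0.79) and OVOL2 (0.47) also passed and lie outside that rule. In 7 of them the difference was positive. CBLL1 differed by 1.47 ± 0.13 (2.80 after siPIAS1 and 1.33 after siSCR), CLDN1 by 1.21 ± 0.20 (1.92 and 0.72), SNAI2 by 0.85 ± 0.19 (3.31 and 2.46), CRB3 by 0.68 ± 0.15 (1.20 and 0.52), CDX2 by 0.68 ± 0.18 (0.28 and -0.39), KRT10 by 0.66 ± 0.19 (0.89 and 0.23) and DSG2 by 0.41 ± 0.12 (-0.36 and -0.77). In 8 it was negative. GRHL2 differed by -1.20 ± 0.16 (-0.49 after siPIAS1 and 0.71 after siSCR), GRHL1 by -1.16 ± 0.22 (-0.31 and 0.85), TFAP2C by -1.02 ± 0.19 (-0.70 and 0.32), CD44 by -1.01 ± 0.25 (-1.70 and -0.70), ITGA6 by -0.88 ± 0.25 (-1.01 and -0.13), JAM3 by -0.82 ± 0.19 (-4.15 and -3.33), DSP by -0.58 ± 0.16 (-0.14 and 0.44) and CXADR by -0.58 ± 0.14 (1.24 and 1.81).

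CBLL1, CLDN1, CRB3, JAM3, GRHL2, TFAP2C, GRHL1 and SNAI2 kept this call in all 12 fits without 1 array. The values of 3 genes rest on groups without a detected signal and are fitted values, not folds. SNAI2 was undetected in siPIAS1 and siSCR without testosterone. GRHL1 was undetected in all groups but siSCR with testosterone, and ITGA6 was undetected in siPIAS1 with testosterone. JAM3, CD44 and CLDN1 were close to the floor in some groups, so their values are limited too. JAM3 was detected on 2 of 3 arrays in each testosterone group. CD44 was detected on 2 of 3 arrays of siPIAS1 with testosterone, and CLDN1 on 1 of 3 of siPIAS1 without it. Under 10 other settings SNAI2 lost the call in 1 (no background correction), GRHL1 in 1 (undetected signals raised to the floor), DSP in 1 (replicate block), DSG2 in 2 (scaling to the 75th percentile, replicate block), KRT10 in 2 (no filter on dim probes, replicate block) and ITGA6 in 6 (background, scaling, offset, authors' values, no filter and undetected signals raised). The call was lost in 3 of the 12 fits for CD44, 5 for CXADR, 7 for CDX2, 8 for KRT10, 9 for DSP, 9 for ITGA6 and 10 for DSG2, with a highest adjusted p of 0.116, reached by DSG2.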

How the results depend on the processing

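The 30 results of the 6 genes (6 genes in 5 comparisons) were recomputed under 23 alternatives, 12 of them without 1 array. Of 684 values, 667 kept their side of the threshold, 5 called values lost their call, 12 gained one and 0 reversed a called direction. The calls that moved are those of KRT18, EPCAM, CDH1 and DST given with the results. In addition, array weights called EPCAM (testosterone after siPIAS1, 0.30, adjusted p = 0.0237), CDH1 (siPIAS1 without testosterone, 0.29, adjusted p = 0.0106) and KRT18 (testosterone after siSCR, 0.30, adjusted p = 0.0214). CDH1 without testosterone also passed with only the arrays of the groups compared (adjusted p = 0.0459), and KRT18 after siSCR with the mean of its probes (0.33, adjusted p = 0.0345). In the difference between responses, the number of the 6 genes called was 1 in place of 0 without background correction (KRT18, 0.49, adjusted p = 0.0475) and 1 with array weights (KRT18, 0.51, adjusted p = 0.0304), and 0 to 1 without 1 array. The count of all genes called there was 2612 with array weights and 656 to 1506 without 1 array, against 1065. For siPIAS1 with testosterone it was 1981 with only the arrays of those groups and 2380 to 3753 without 1 array, against 3586. For siPIAS1 without testosterone it was 3357 with array weights, 2707 with only the arrays of those groups and 765 (without siSCR replicate 1) to 2481 (without replicate 3 of siPIAS1 with testosterone), against 1428. Scaling to the 75th percentile turned the split of that comparison to 620 higher and 818 lower, against 810 higher and 618 lower. Arrays with the same replicate number did not deviate together (r from -0.26 to 0.19 over 18 pairs, against -0.22 to 0.33 for other pairs), so the numbers are not taken as pairs. With the replicate number as a block, 5816 and 4664 genes were called for testosterone after siPIAS1 and after siSCR, 3410 and 1298 for siPIAS1 with and without testosterone, and 942 for the difference between responses, no call of the 6 genes changed, and the second KRT18 probe lost its siPIAS1 call with testosterone (adjusted p = 0.0569). A slide block was not run, as the files name no slide. Signal near the floor limits DST, and 5 of its 6 probes gave no detected value.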
